A study of Mus musculus with 6 samples.

Results

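The proteasome subunit genes were followed here across all 6 libraries of a mouse kidney study. They were taken as the rows of the count table whose symbol starts with Psma, Psmb, Psmc, Psmd, Psme, Psmf or Psmg followed by a number, leaving out 4 rows marked as pseudogenes (-ps). The rule found 50 of the 26971 rows, of which 49 had 10 or more counts in 3 or more libraries and were tested. Of these 49, 46 encode subunits, activators, an inhibitor or assembly factors, and the other 3 are given apart. Psmc3ip and Psme3ip1 share only the start of the name, and Psme2b is a near copy of Psme2. The row that was not tested is Psma8, an alpha subunit gene best known from testis, which held 0 to 8 counts per library.

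The congested kidneys had ischaemia-reperfusion injury (IRI), an interruption of renal blood flow followed by reperfusion, together with renal congestion. Their labels read IRI with IVCC and their titles Cong_IRI, and the labels do not expand IVCC. The comparison group had IRI alone, titled CLK_IRI, and the labels do not expand CLK either. Each group had 3 poly(A) RNA libraries. All came from renal cortex of C57BL/6 males, sampled 1 day after surgery. No uninjured kidney was among the samples used here, so both groups carry the injury, and the labels give neither the age of the mice nor whether each library came from a separate animal. The p-values below therefore measure only the spread between these libraries. Replicates carry the numbers 1 to 3 in each group, and what equal numbers have in common is not stated.

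The proteasome is the large protease that degrades proteins tagged with ubiquitin. Its 20S core is a barrel of alpha (Psma) and beta (Psmb) subunits, and the 19S regulatory particle, made of ATPases (Psmc) and other subunits (Psmd), binds the tagged protein, removes the tag and feeds the chain into the barrel. Interferon and cells of the immune system can replace the catalytic beta subunits by Psmb8, Psmb9 and Psmb10, which gives the immunoproteasome and changes the peptides offered to T cells.

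Total counts ranged from 10865860 to 14350425 per library, and the 50 rows took 0.578% to 0.747% of them in congested IRI libraries and 0.559% to 0.951% in IRI libraries. Replicate 1 of both groups stood apart from the other 4 libraries: on the leading principal component of 1000 highly variable genes, with 68.1% of their variance, they lay at -42.3 (congested) and -39.5 (IRI), and the others at 10.1 to 32.9. All levels below are library-scaled counts with TMM factors (CPM), which correct each library for its composition. Fold changes come from edgeR's quasi-likelihood test over the 14398 genes tested, with Benjamini-Hochberg adjusted p, as congested IRI over IRI.

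No proteasome gene passed the threshold of adjusted p under 0.05, and 0% of all genes did. In simulated data this fit found few of the planted changes, so a lack of calls does not show a lack of change. Most proteasome genes were nevertheless on the same side. Of the 46 genes, 42 had a log2 fold change below 0, where 50.3% of all genes tested did, and their median was -0.42 against -0.0042 over all genes. At an unadjusted p under 0.05 edgeR found 2 of the 46 lower (Psmd9 and Psmg1), where 1.02% of all genes were, and 0 higher, where 0.979% were. DESeq2 and limma-voom also called 0 of them and 0 of all genes. Below an unadjusted 0.05 DESeq2 had 2 of the 46, where 355 of the 14398 genes tested were in either direction. By limma-voom it was 1 of the 46, and 281 of the 14398. The genes are not independent of each other, since they share libraries and vary together.

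**Figure D1:**
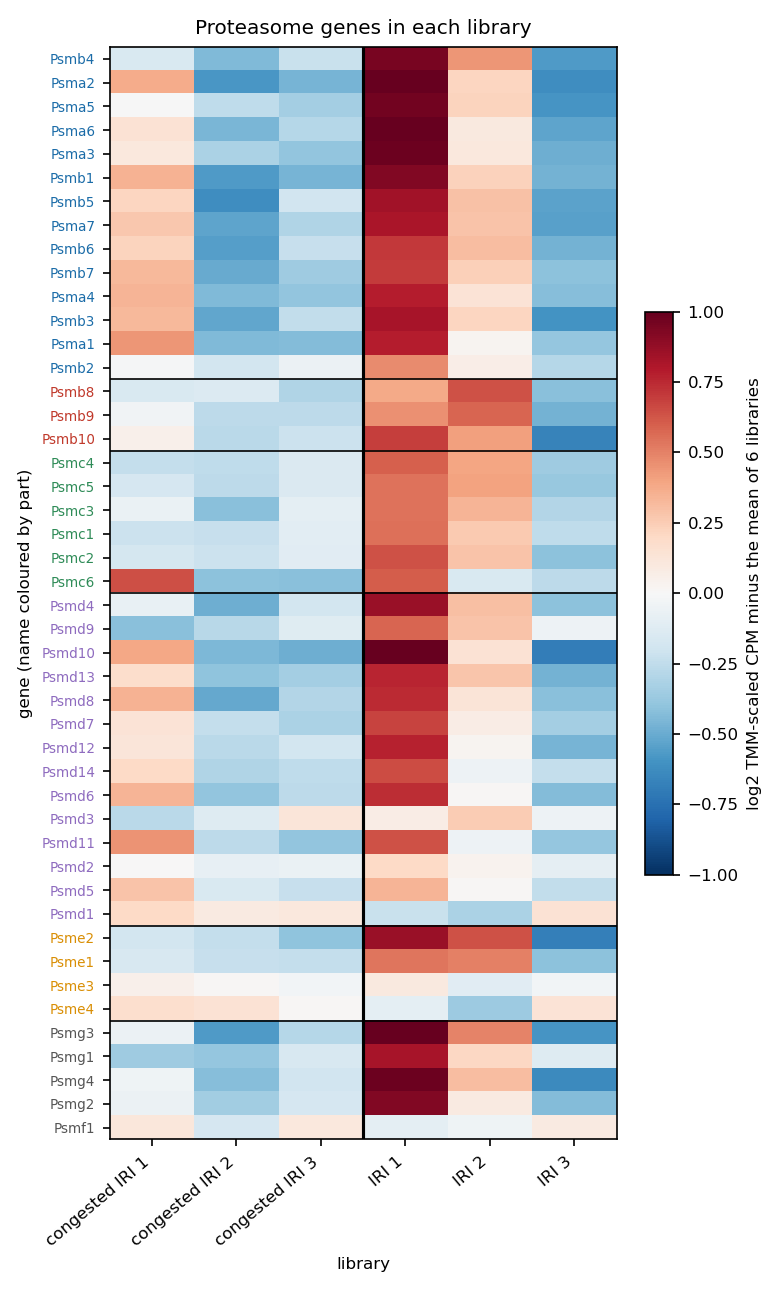
Rows are the 46 proteasome genes grouped by part, columns the 3 congested IRI and the 3 IRI libraries, and colour is log2 CPM minus the gene's mean over the 6 libraries, saturating at the ends of the scale. IRI replicate 1 is the highest library in 39 of the 46 rows and IRI replicate 3 the lowest in 27, with the congested libraries mostly between them.

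The spread between the IRI libraries was wider than the difference between the groups. IRI replicate 1 was the highest of the 6 libraries for 39 of the 46 genes (25.8% of all genes tested), and IRI replicate 3 was the lowest for 27 of them (18.4% of all genes). Summed over the 46 genes, the congested IRI libraries held 7578, 5400 and 5775 CPM in replicates 1, 2 and 3, and the IRI libraries 10783, 7567 and 5328 CPM. The mean was 6251 ± 1164 CPM in congested IRI and 7892 ± 2742 CPM in IRI kidney (SD, n = 3 each), so the groups overlapped and the difference was smaller than the SD of the IRI group.

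All 14 tested genes of the constitutive 20S core had a log2 fold change below 0, from -0.67 to -0.20 with a median of -0.45. Leaving out single libraries moved the core median between -0.74 (IRI replicate 3 left out) and -0.041 (IRI replicate 1 left out); it was -0.28 when congested replicate 2 was dropped. Psmb4, a beta subunit without catalytic activity, had the smallest p among them. It lay at 208.0, 170.7 and 198.3 CPM in congested IRI replicates 1, 2 and 3, and at 448.2, 313.8 and 156.2 CPM in IRI replicates 1, 2 and 3. IRI replicates 1 and 2 were above all congested libraries and IRI replicate 3 below all of them. Its log2 fold change was -0.67 ± 0.37 (SE; edgeR adjusted p = 0.935). Psma5, an alpha subunit gene, held 79.0, 66.3 and 62.6 CPM in congested IRI and 154.2, 92.2 and 52.6 CPM in IRI replicates 1, 2 and 3, again with IRI replicates 1 and 2 above and IRI replicate 3 below the congested libraries, at a log2 fold change of -0.52 (SE 0.37, edgeR adjusted p 0.935). The other 12 core genes overlapped between the groups as well.

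The 3 catalytic subunits of the constitutive core were no exception. Psmb5, which carries the chymotrypsin-like activity, lay at 154.9, 87.0 and 116.9 CPM in congested IRI replicates 1, 2 and 3 and at 239.8, 163.8 and 92.2 CPM in IRI replicates 1, 2 and 3. Psmb6, with the caspase-like activity, held 286.6, 167.6 and 209.5 CPM in congested IRI and 400.4, 304.2 and 177.1 CPM in IRI kidney. Psmb7, with the trypsin-like activity, held 155.7, 87.7 and 97.2 CPM in congested IRI and 202.0, 146.2 and 93.2 CPM in IRI kidney. In all 3 genes IRI replicate 1 was the highest library and congested replicate 2 the lowest, just below IRI replicate 3. The log2 fold changes were -0.47, -0.41 and -0.37 for Psmb5, Psmb6 and Psmb7 (SE 0.38, 0.35 and 0.35). Exons of Psmb7 share 405 bases with Nek6 on the other strand, and the strand setting of the counting is not given in the sources used here.

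The immunoproteasome genes were low in both groups and lay on the same side as the constitutive core. Psmb8 (chr17:34197721-34201454, plus strand) and Psmb9 (chr17:34181987-34187764, minus strand) are close neighbours in GRCm38, and Psmb10 lies elsewhere. Psmb8, the counterpart of Psmb5, held 6.19, 6.23 and 5.57 CPM in congested IRI replicates 1, 2 and 3 and 8.90, 10.7 and 5.12 CPM in IRI replicates 1, 2 and 3. Psmb9, the counterpart of Psmb6, held 3.95, 3.37 and 3.37 CPM in congested IRI and 5.56, 6.06 and 2.91 CPM in IRI kidney. Psmb10, the counterpart of Psmb7, held 21.7, 17.4 and 18.0 CPM in congested IRI and 33.9, 27.8 and 13.2 CPM in IRI kidney. For all 3 genes the congested libraries lay between IRI replicate 3 below and IRI replicates 1 and 2 above. The log2 fold changes were -0.46, -0.44 and -0.39 for Psmb8, Psmb9 and Psmb10 (SE 0.32, 0.35 and 0.34), each at an edgeR adjusted p of 0.935. Exons of Psmb8 share 498 bases with the antisense gene Gm20496, and those of Psmb9 share 212 with Tap1 on the other strand.

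**Figure D2:**
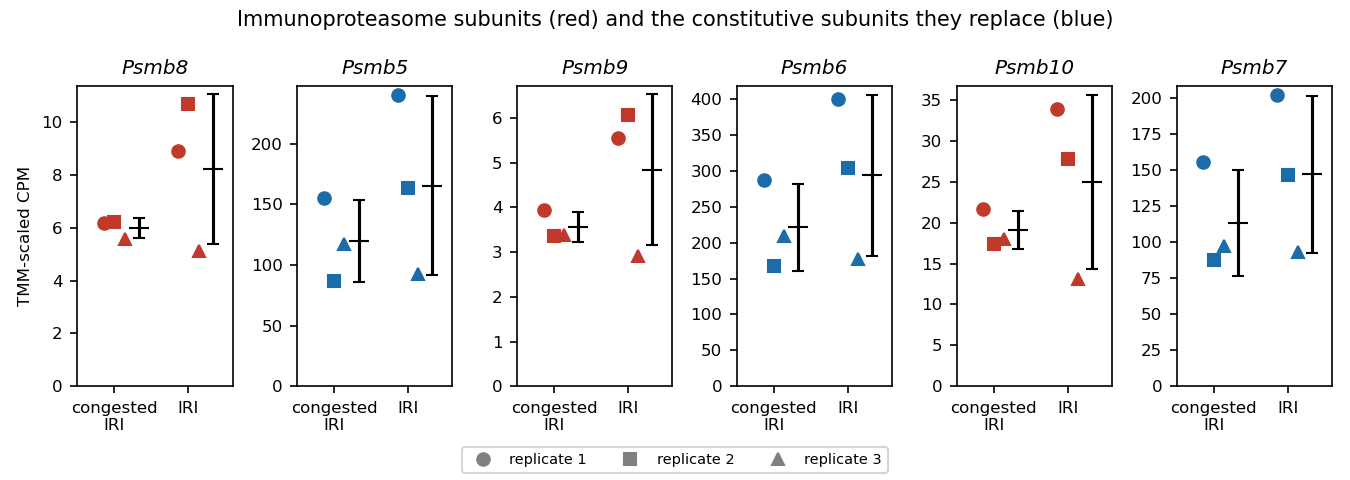
Each panel plots the CPM of 1 gene in the 3 congested IRI libraries and the 3 IRI libraries, with marker shape giving the replicate number and the bar the mean ± SD (n = 3). In Psmb8 the congested libraries sit at 5.57 to 6.23 CPM inside the IRI range of 5.12 to 10.7 CPM, and IRI replicate 3 is the lowest library for all 3 immunoproteasome genes.

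The balance between each immunoproteasome gene and the subunit it replaces was compared as a ratio of counts within each library, which does not depend on scaling and is read only between libraries, since lengths differ. Psmb8 counts were 4.0%, 7.15% and 4.77% of Psmb5 counts in congested IRI replicates 1, 2 and 3, and 3.71%, 6.51% and 5.56% in IRI replicates 1, 2 and 3. The mean log2 ratio was -4.28 ± 0.43 in congested IRI and -4.29 ± 0.42 in IRI kidney (SD, n = 3 each; exact two-sided permutation p = 1). Psmb9 counts were 1.38%, 2.01% and 1.61% of Psmb6 counts in congested IRI and 1.39%, 1.99% and 1.65% in IRI kidney (exact two-sided permutation p = 0.9). The 2 groups repeated the same order, with the lowest ratio in replicate 1 and the highest in replicate 2. Psmb10 counts were 13.9%, 19.9% and 18.6% of Psmb7 counts in congested IRI and 16.8%, 19.03% and 14.1% in IRI kidney (exact two-sided permutation p = 0.8). After adjustment over the 3 ratios each permutation p was 1, and 3 against 3 libraries cannot give less than 0.1, so these tests could not have called a shift. The log2 difference between the group means was 0.01 for Psmb8 to Psmb5, -0.01 for Psmb9 to Psmb6 and 0.06 for Psmb10 to Psmb7, against an SD of 0.22 to 0.43 within a group.

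Markers of leukocytes, which carry the immunoproteasome, were set beside these genes. Of 17 markers 11 were tested and 0 called; 9 had a log2 fold change above 0, with a median of 1.05. Their summed level was 155.1 to 503.1 CPM in congested IRI and 158.6 to 211.9 CPM in IRI libraries, and none of the 17 was at 0 in all libraries. Several of them were highest in congested replicate 1. Lyz2 held 197.1, 25.6 and 14.2 CPM in congested IRI replicates 1, 2 and 3. In IRI replicates 1, 2 and 3 it held 42.0, 14.5 and 11.1 CPM. S100a9 held 113.7, 5.64 and 3.53 CPM in congested IRI and 40.2, 4.87 and 2.65 CPM in IRI kidney. Cd74 and H2-Ab1 lay below 0, at log2 fold changes of -0.27 and -0.38. The part of leukocytes in the level of Psmb8, Psmb9 and Psmb10 was not tested. In bulk tissue, fewer cells of a type and less RNA per cell cannot be told apart.

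The 6 ATPases of the 19S base had a median log2 fold change of -0.41, with 6 of 6 below 0. Psmc4 had the smallest p among them and held 123.9, 122.2 and 132.1 CPM in congested IRI replicates 1, 2 and 3, and 220.4, 191.8 and 114.3 CPM in IRI replicates 1, 2 and 3. Its log2 fold change was -0.48 ± 0.27 (SE; edgeR adjusted p = 0.935). Psmc1 held 158.7, 157.5 and 171.1 CPM in congested IRI and 269.8, 221.7 and 154.7 CPM in IRI kidney, at a log2 fold change of -0.41 (SE 0.25, edgeR adjusted p 0.935). In both genes the congested libraries lay close together while the IRI libraries spread widely, and IRI replicate 3 was below all others. Psmc6 differed from this order. It was high in replicate 1 of both groups, at 384.6 CPM in congested IRI and 374.1 CPM in IRI kidney, and lay at 183.8 to 221.0 CPM in the other 4 libraries.

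Of the 14 Psmd genes 13 had a log2 fold change below 0, with a median of -0.29. Psmd9, a chaperone that helps to assemble the 19S base, was 1 of 2 proteasome genes whose groups did not overlap. It held 23.0, 25.3 and 28.2 CPM in congested IRI replicates 1, 2 and 3, and 46.0, 37.3 and 29.6 CPM in IRI replicates 1, 2 and 3, so that the highest congested library was just below the lowest IRI library. Its log2 fold change was -0.56 ± 0.22 (SE; unadjusted p = 0.0383, edgeR adjusted p 0.935). Over all genes 3.1% had every congested library below every IRI library, and 2 of the 46 proteasome genes did. Exons of Psmd9 share 1849 bases with the noncoding gene Gm26745 on the other strand. Psmd4, which encodes a ubiquitin receptor, held 146.5, 109.7 and 135.7 CPM in congested IRI and 280.5, 190.0 and 115.9 CPM in IRI kidney, at a log2 fold change of -0.58 (SE 0.33, edgeR adjusted p 0.935). The single Psmd gene above 0 was Psmd1, a scaffold of the 19S base, named after its values were seen. It held 181.2, 168.5 and 170.2 CPM in congested IRI and 135.6, 127.3 and 174.5 CPM in IRI kidney, a log2 fold change of 0.25 ± 0.21 (SE). For Psmd1, IRI replicate 3 was above IRI replicates 1 and 2. Exons of Psmd1 share 301 bases with Gm21972 on the same strand and 252 with Htr2b on the other.

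The activators, which can cap the core in place of the 19S particle, were split. Psme1 and Psme2 encode the subunits of the interferon-inducible activator. Psme1 held 82.5, 78.9 and 78.4 CPM in congested IRI replicates 1, 2 and 3, and 133.6, 131.4 and 69.5 CPM in IRI replicates 1, 2 and 3 (log2 fold change -0.48, SE 0.28, edgeR adjusted p 0.935). Psme2 held 70.3, 67.6 and 60.5 CPM in congested IRI and 145.3, 124.3 and 49.7 CPM in IRI kidney (log2 fold change -0.69, SE 0.38, edgeR adjusted p 0.935). As for Psmb4, IRI replicates 1 and 2 lay above and IRI replicate 3 below every congested library. Psme3, the activator of the nucleus, was nearly level at 146.0, 141.9 and 137.9 CPM in congested IRI and 150.4, 129.9 and 138.3 CPM in IRI kidney. Psme4, a large activator linked to histone turnover, held 317.9, 313.6 and 285.5 CPM in congested IRI and 264.5, 220.6 and 310.9 CPM in IRI kidney. The log2 fold changes of Psme3 and Psme4 were 0.02 and 0.20 (SE 0.18 and 0.22).

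Among the assembly factors, Psmg1, which pairs with Psmg2 to build the alpha ring, was the other gene whose groups did not overlap. It held 34.3, 33.5 and 39.3 CPM in congested IRI replicates 1, 2 and 3 and 77.4, 50.5 and 40.2 CPM in IRI replicates 1, 2 and 3. The gap between the groups was small beside the spread within IRI kidney, and the log2 fold change was -0.65 ± 0.27 (SE; unadjusted p = 0.0441, edgeR adjusted p 0.935). Psmg3, which pairs with Psmg4, held 7.90, 5.57 and 6.75 CPM in congested IRI and 16.5, 11.6 and 5.48 CPM in IRI kidney, at a log2 fold change of -0.74 (SE 0.41, edgeR adjusted p 0.935). Exons of Psmg3 share 280 bases with Gm26938 on the same strand. Of Psmf1 and the 4 Psmg genes, 4 were below 0, with a median of -0.58. The remaining one, Psmf1, an inhibitor of the core in vitro, was level at 36.5 ± 3.88 CPM in congested IRI and 35.5 ± 2.38 CPM in IRI kidney (SD, n = 3 each).

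**Figure D3:**
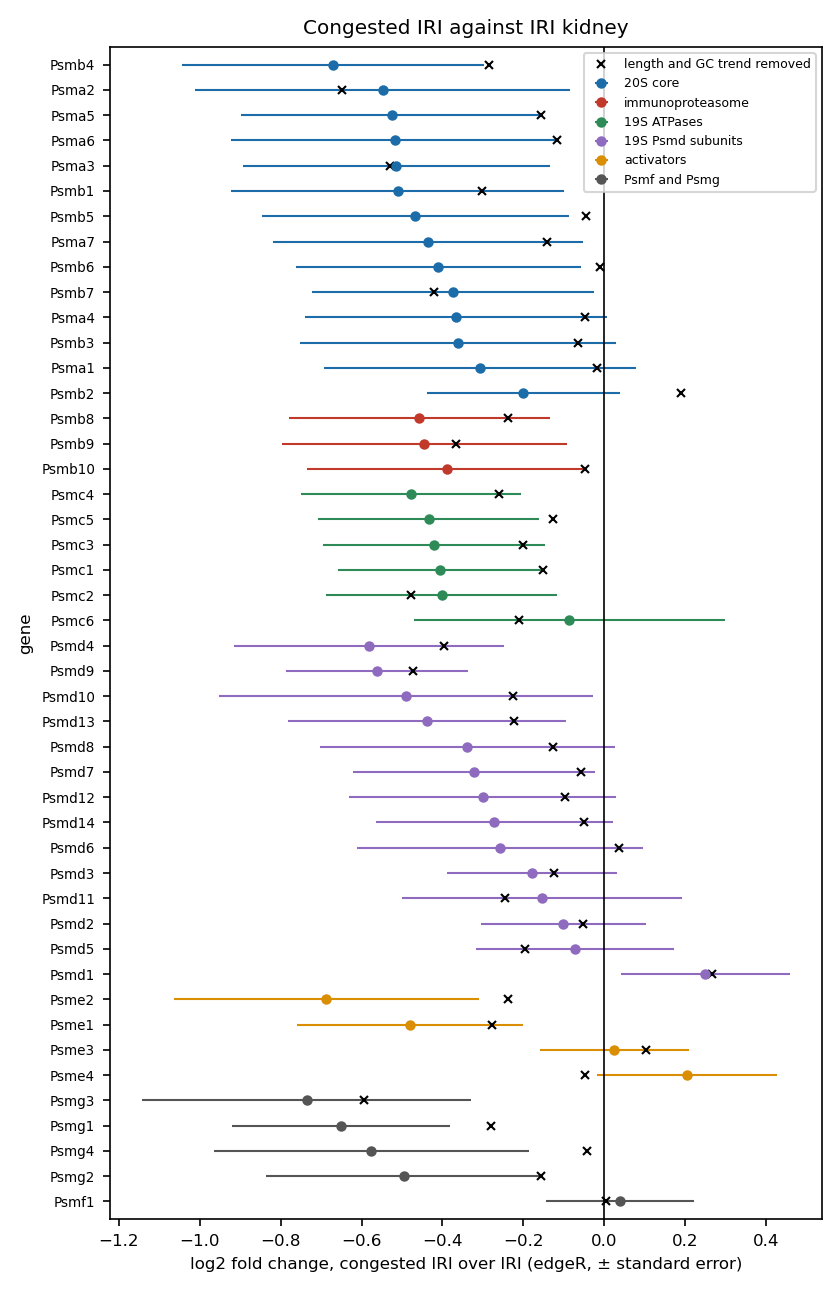
The horizontal axis is the log2 fold change of congested IRI over IRI kidney with its standard error (edgeR, 3 libraries per group), and the rows are the 46 genes coloured by part. Crosses give the same value once each library was corrected for transcript length and GC content; 42 of 46 circles and 41 of 46 crosses lie below 0, and most crosses are closer to 0.

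Within equal replicate numbers the genes split by number. In number 1 the congested library was lower for 42 of the 46 genes (49.7% of all genes), and in number 2 for 43 of them (49.4% of all genes). In number 3 it was lower for 9 (50.4% of all genes). The median difference in log2 CPM (prior count 2) was -0.58 in number 1, -0.58 in number 2 and 0.17 in number 3. The order lower, lower, higher was held by 36 of the 46, among them 13 of 14 core genes and all 3 immunoproteasome genes, where 25% of all genes held it. Lower in all 3 numbers were 5 of the 46, against 13.1% of all genes, and higher in all 3 were 0, against 13.1%. For the core the medians were -0.57, -0.73 and 0.24 in numbers 1, 2 and 3, for the ATPases -0.74, -0.58 and 0.20, for the Psmd genes -0.43, -0.35 and 0.07, and for Psmf1 with the Psmg genes -1.01, -0.59 and 0.26. Blocking on the replicate number, edgeR called 0 of the 46 genes (0% of all genes), with 2 lower at an unadjusted p under 0.05 (2.99% of all genes) and 0 higher (4.06%). Groups that did not overlap with the congested libraries above were found for 0 of the 46, against 3.38% of all genes.

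**Figure D4:**
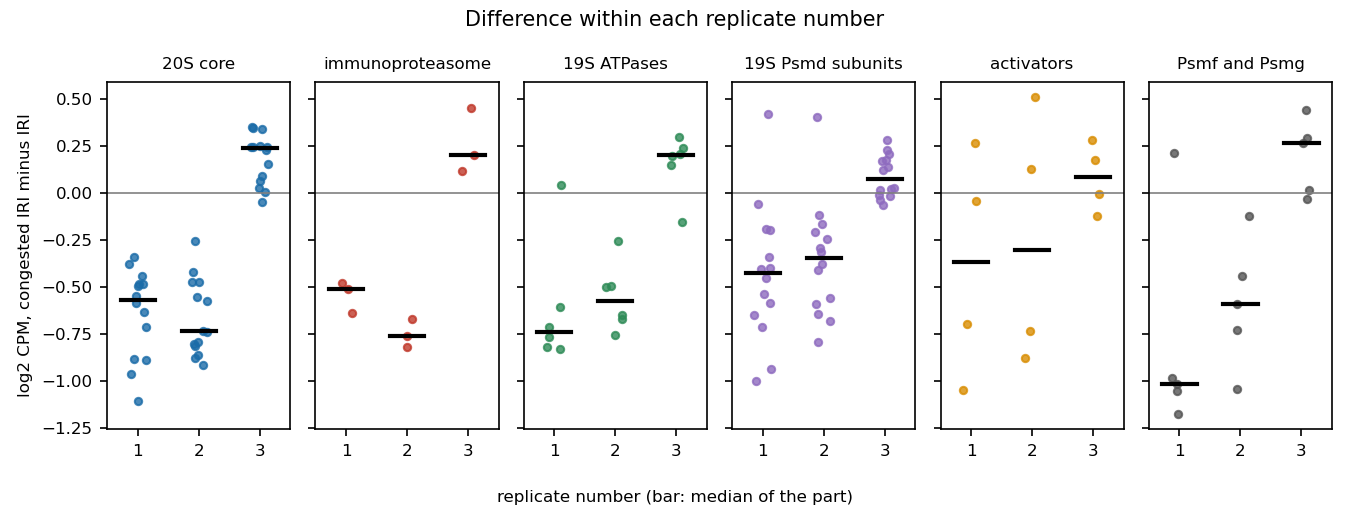
Each point is the difference in log2 CPM, congested IRI minus IRI library, of 1 gene within replicate number 1, 2 or 3, and bars are medians of the part. Core medians are -0.57, -0.73 and 0.24, and the activators and the Psmd genes have members on both sides of 0 in every number.

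When both libraries of a number were left out in turn, the fit with the replicate block called 0 proteasome genes without number 1, 0 without number 2 and 39 of 46 without number 3. Without number 3, 37 genes fell in congested IRI kidney and 2 rose (Psmd1 and Psme4, the second not with the length and GC trend removed), while 18.3% of all genes fell and 19.8% rose. Psmb4 fell by 0.99 on the log2 scale (SE 0.12, edgeR adjusted p = 1.21e-06) and Psme2 by 0.96 (SE 0.12, edgeR adjusted p = 9.70e-07). Psmd4 fell by 0.87 and Psmg1 by 0.89. Psmd1 rose by 0.41 (edgeR adjusted p = 0.00611). All 14 core genes and 5 of 6 ATPases were among those that fell, as were Psmb8 and Psmb10, whereas Psmb9 had an adjusted p of 0.0763. By DESeq2 in the same design the calls of Psmb2 (adjusted p 0.0641), Psmb8 (0.218), Psmd14 (0.0610) and Psme4 (0.0521) were lost. With the length and GC trend removed edgeR gave Psmb8 an adjusted p of 0.396 and Psmb10 one of 0.488. DESeq2 called 34 lower and 1 higher (11.3% of all genes lower), and limma-voom 37 lower and 2 higher (19% of all genes lower). In either direction DESeq2 called 3068 and limma-voom 5668 of the 14398 genes. DESeq2 gave no adjusted p to 3350 of the 14398 genes, Psmb9 among them, and its share counts these as not called. These 4 libraries with 3 fitted terms leave 1 residual degree of freedom, so that the spread is largely borrowed across genes. Over all 14398 genes the differences in numbers 1 and 2 correlated at a Pearson r of 0.58, and those of number 3 with either at -0.20 and -0.17, across genes, which are not replicates. Without IRI replicate 3 alone and without the block, edgeR called 0 of the 46 and found 21 lower at an unadjusted p under 0.05 (8.86% of all genes).

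The libraries that stood apart bear on the size of the difference too. Without replicate 1 of both groups, the blocked medians were -0.27 for the core, -0.34 for the immunoproteasome, -0.21 for the ATPases, -0.12 for the Psmd genes, -0.11 for the activators and -0.15 for Psmf1 with the Psmg genes. Leaving out IRI replicate 1 alone gave a median of -0.07 over the 46 genes without the block, and leaving out IRI replicate 3 alone gave -0.67. Over all single libraries left out, the median ran from -0.63 to -0.22 for the ATPases, from -0.70 to -0.25 for the immunoproteasome, from -0.36 to -0.12 for the activators and from -0.51 to 0.032 for the Psmd genes.

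The genes also followed transcript length. Proteasome transcripts are short, with a median of 1895 bases for the longest annotated transcript against 3271 over all genes tested. Across all genes the log2 fold change was higher for longer transcripts (Spearman's rho 0.56 over 13925 genes, which are not independent replicates), and its median was -0.30 for transcripts of up to 2064 bases and 0.25 for those above 4715. Of the 46 proteasome genes 29 were of up to 2064 bases, and all 29 of these were below 0, with a median of -0.44. The only one above 4715 bases was Psme4, whose longest transcript has 6491 bases. With a length and GC correction in each library, the median of the 46 genes was -0.15, with 41 of 46 below 0 (51.1% of all genes). The core median was then -0.13, that of the immunoproteasome -0.24, that of the ATPases -0.21, that of the Psmd genes -0.13, that of the activators -0.14 and that of Psmf1 with the Psmg genes -0.16. The value for Psme4 was -0.05, and that for Psmb2, a core beta subunit gene, was 0.19. With the trend removed and number 3 left out, edgeR with the block called 14 of the 46 lower and 1 higher (8.25% of all genes lower). In either direction it called 2149 of the 14398 genes tested. The 14 were Psma2, Psma3, Psmb1, Psmb4, Psmb7, Psmc2, Psmc4, Psmd4, Psmd9, Psmd10, Psmd11, Psme1, Psme2 and Psmg3. Psmd11 was not called by the same fit without the correction (edgeR adjusted p 0.183, and 0.0323 with it). The correction used the longest annotated transcript, of 2849 bases for Psmb7 and 3466 for Psmc2, against 1160 and 1785 for their principal ones. With number 3 left out it moved Psmb7 from -0.55 to -0.68 and Psmc2 from -0.66 to -0.86. It also moved Psma2 from -0.75 to -0.96, Psma3 from -0.65 to -0.77 and Psmd11 from -0.20 to -0.40. Over the 46 genes, without the block, Spearman's rho of log2 fold change with length was 0.41 before the correction and -0.31 after it. The part of length in the difference was not tested beyond this correction.

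**Figure D5:**
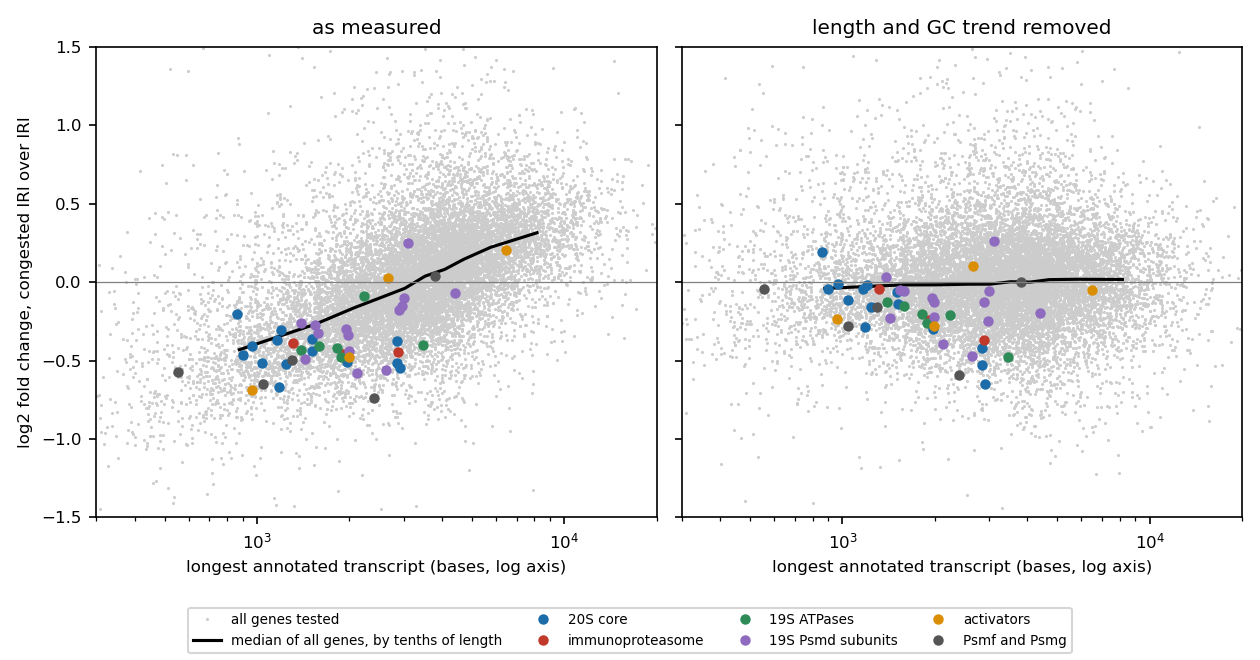
The horizontal axis is the length of the longest annotated transcript on a log scale and the vertical axis the log2 fold change of congested IRI over IRI kidney, as measured on the left and with the length and GC trend removed on the right. Grey points are all genes with a length, the line is their median in length bins, and coloured points are the 46 proteasome genes; the 29 of up to 2064 bases all lie below 0 on the left.

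Between the replicate numbers, tested with group in the same edgeR fit, 2 of the 46 genes passed the threshold, where 7.94% of all genes did. Psmc6 had an adjusted p of 0.0490 and Psmd10, an assembly chaperone of the 19S base, one of 0.0457. Psmd10 held 56.0, 31.3 and 30.6 CPM in congested IRI replicates 1, 2 and 3 and 91.7, 47.3 and 26.5 CPM in IRI replicates 1, 2 and 3, so replicate 1 was the highest in both groups. At an unadjusted p under 0.05 the share was 19 of 46, against 25.9% of all genes. Of these 10 were core genes and 8 Psmd genes, and none was an immunoproteasome or activator gene. The count of 2 depended on the setting: over the 49 rows it was 0 under total counts, 0 under upper-quartile factors, 4 (of 2154 genes called) with the length and GC trend removed, 13 (of 1869) by DESeq2 and 16 (of 3231) without a filter.

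Levels of different genes were compared per kilobase of the principal transcript, as the mean CPM per kilobase over all 6 libraries. The core subunits, present in equal number in the particle, spanned 5.25-fold, with Psmb6 the highest at 322.7 and Psma3 the lowest at 61.4 CPM per kilobase. The rank of Psma3 depends on its annotated length of 2846 bases, against 1239 for Psma5. Before division its means were 144.0 CPM in congested IRI and 205.6 CPM in IRI kidney, above the 69.3 and 99.7 CPM of Psma5. The 6 ATPases spanned 1.75-fold, with Psmc3 at 168.5 and Psmc2 at 96.2 CPM per kilobase. The Psmd genes spanned 14.2-fold, with Psmd8 at 172.5 CPM per kilobase and the chaperone gene Psmd9 at 12.2. The immunoproteasome genes were among the lowest, at 16.8 for Psmb10, 4.37 for Psmb8 and 3.11 CPM per kilobase for Psmb9. The part medians were 176.8 for the core, 117.3 for the ATPases, 83.0 for the Psmd genes, 69.5 for the activators, 27.9 for Psmf1 with the Psmg genes and 4.37 CPM per kilobase for the immunoproteasome.

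Transcription of many proteasome genes can be driven by NFE2L1, a factor that is released when the proteasome is overloaded and that binds the antioxidant response element together with small MAF proteins. The promoters below (RefSeq, GRCm38.p6, 250 bases before to 50 after the start, on the gene's strand) show where the letters of that element or of interferon elements stand in genes that the results turn on. Psmb6, itself a core gene, and Psme4 were chosen because both hold the element next to the start and had fold changes of opposite sign. Neither change was called, and that of Psme4 was -0.05 with the length and GC trend removed. The link of the element to either change was not tested. Psmd9 was chosen because its groups did not overlap, and Psmb8 as an immunoproteasome gene. Capitals mark matches on either strand to TGACNNNGC (antioxidant response element core), the interferon-stimulated response element core (GAAA, any 2 bases, GAAA) or TTCNNNGAA (gamma-activated sequence).
Psmb6, chr11:70525107-70525406, plus strand: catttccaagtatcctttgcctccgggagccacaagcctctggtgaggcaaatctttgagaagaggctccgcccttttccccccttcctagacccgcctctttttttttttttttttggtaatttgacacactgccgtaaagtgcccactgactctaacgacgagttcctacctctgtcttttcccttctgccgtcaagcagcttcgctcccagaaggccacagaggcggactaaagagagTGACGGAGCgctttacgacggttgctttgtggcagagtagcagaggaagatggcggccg
Psme4, chr11:30771525-30771824, plus strand: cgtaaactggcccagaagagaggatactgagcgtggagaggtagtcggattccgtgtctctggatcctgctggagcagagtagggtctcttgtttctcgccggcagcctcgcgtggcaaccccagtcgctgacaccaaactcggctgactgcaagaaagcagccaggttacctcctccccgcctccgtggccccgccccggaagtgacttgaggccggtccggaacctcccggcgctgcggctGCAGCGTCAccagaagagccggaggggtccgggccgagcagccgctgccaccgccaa
Psmd9, chr5:123227940-123228239, plus strand: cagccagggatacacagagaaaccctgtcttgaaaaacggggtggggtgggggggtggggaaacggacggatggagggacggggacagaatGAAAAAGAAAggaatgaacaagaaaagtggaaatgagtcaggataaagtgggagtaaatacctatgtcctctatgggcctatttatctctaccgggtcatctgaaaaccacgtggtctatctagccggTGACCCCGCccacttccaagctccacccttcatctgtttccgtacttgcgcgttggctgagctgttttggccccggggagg
Psmb8, chr17:34197945-34198244, plus strand: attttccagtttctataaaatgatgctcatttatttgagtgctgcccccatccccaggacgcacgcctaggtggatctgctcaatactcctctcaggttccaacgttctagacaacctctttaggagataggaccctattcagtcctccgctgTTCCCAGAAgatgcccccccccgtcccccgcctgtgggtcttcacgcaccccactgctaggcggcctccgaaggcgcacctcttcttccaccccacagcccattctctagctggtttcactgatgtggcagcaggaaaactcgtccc

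Promoter windows were found for 39 of 47 genes, the 46 tested and Psma8, with 42 windows in all. The antioxidant element letters stood in 6 of these 42 windows (14.3%), those of Psmb5, Psmb6, Psmc6, Psmd9, Psmd12 and Psme4, and in 12.4% of all 32817 promoter windows. The interferon-stimulated element letters stood in 5 windows (11.9%), against 3.43% of all windows, those of Psmb3, Psmd4, Psmd9, Psme1 and Psmg4. The gamma-activated letters stood in 3 windows (7.14%), those of Psmb8, Psmd2 and Psmg1, against 8.29% of all. The CCAAT box, bound by NF-Y and not marked in the sequences, stood in 13 of the 42 windows (31%) and in 37.4% of all. A match is a description of letters, not a bound site.

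The other genes of the pathway did not pass the test either. Of 18 assembly, accessory and shuttle factors 0 were called, 10 lay below 0 and the median was -0.03. Pomp, which matures the core and is removed with it, held 162.7, 102.0 and 106.9 CPM in congested IRI replicates 1, 2 and 3 and 279.1, 192.7 and 90.3 CPM in IRI replicates 1, 2 and 3. IRI replicate 1 was the highest library and IRI replicate 3 the lowest, and its log2 fold change was -0.60 (SE 0.41, edgeR adjusted p 0.935). Adrm1, a ubiquitin receptor of the 19S particle, held 67.1, 52.7 and 65.3 CPM in congested IRI and 78.0, 71.4 and 69.3 CPM in IRI kidney. Its groups did not overlap, as in 3.1% of all genes, and its log2 fold change was -0.24 (SE 0.19, edgeR adjusted p 0.935). Zfand2a, which encodes a stress-induced partner of the proteasome, did not overlap in the other direction, as in 3.38% of all genes. It held 28.3, 22.5 and 22.8 CPM in congested IRI and 20.4, 16.3 and 21.0 CPM in IRI kidney (log2 fold change 0.35, SE 0.21, edgeR adjusted p 0.935). Usp14, a deubiquitinase that binds the 19S particle, held 87.0, 77.5 and 61.2 CPM in congested IRI and 88.8, 46.0 and 62.4 CPM in IRI kidney (log2 fold change 0.19, SE 0.28).

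Of 11 regulators of proteasome transcription 0 were called and 5 lay below 0, with a median of 0.0049. Nfe2l1 held 199.9, 217.1 and 235.6 CPM in congested IRI replicates 1, 2 and 3 and 145.0, 221.2 and 258.3 CPM in IRI replicates 1, 2 and 3. In IRI kidney its order over the libraries was the reverse of the core's, and its log2 fold change was 0.06 ± 0.26 (SE). Of 6 genes for ubiquitin and its activating enzymes 0 were called, 4 lay below 0 and the median was -0.36. Of 16 tested interferon and antigen processing genes 0 were called, 10 lay below 0 and the median was -0.09.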

How the data were processed

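The authors deposited whole-number read counts per gene in 1 table with a column for each sample. The submitters' processing notes name STAR 2.7.10a, featureCounts, Subread and GRCm38, and per the labels' protocols the poly(A) kit keeps strand. Annotation, strand setting and multimapping rule were not found in the labels, so genes with overlapping exons, and Psme2 with its near copy Psme2b, are uncertain. Members and lists were chosen with earlier results of these data known.

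The 14398 genes with 10 or more counts in 3 or more libraries entered edgeR 4.0.16 (R 4.3.3; TMM, robust quasi-likelihood test on group), with Benjamini-Hochberg adjustment over all of them and a threshold of 0.05. Alternatives were DESeq2 1.42.0, limma 3.58.1 (voom), other factors and filters, the replicate block, and leaving out each library or number. A length and GC offset was fitted with mgcv 1.9.3 (basis 6), using GENCODE lengths for GRCm38, matched for 96.7% of tested genes. Values in every library are given for the catalytic, immunoproteasome and activator genes, the 2 genes with the smallest p of each other part, genes whose groups do not overlap, and Nfe2l1, Pomp, Adrm1 and Usp14. Psmc6, Psmd1, Psmd10, Zfand2a and the 3 rows that are no subunit were added after their values were seen. Marker lists for leukocytes, proximal tubule, other epithelium and endothelium checked the tissue. The code was tested on simulated data, with changes planted on the measured effects of the replicate number. There, edgeR without the block recovered 0% of planted 2-fold and 5% of planted 4-fold changes, and with the block 58% and 93%.

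For the pairing check, each library's deviation from its group mean was correlated between equal numbers, which gave 0.719 for number 1, 0.342 for number 2 and 0.427 for number 3. All pass 0.1, so equal numbers were treated as pairs, a reading that rests on the data and not on the labels. IRI replicate 2 correlated more with congested replicate 3 (0.395) than with its own number, and IRI replicate 3 gave 0.242 with congested replicate 2. Both pass 0.1 too, so the check cannot tell equal numbers from pairs with numbers 2 and 3 swapped. The fits with the replicate block rest on equal numbers being pairs. Libraries of the same group were not copies of each other. Chi-square over degrees of freedom was 19.0 for the closest pair, congested replicates 2 and 3, and reached 196.9 for IRI replicates 1 and 3.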

Additional observations from a re-analysis of the deposited data

How the results depend on the processing

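With the replicate block edgeR called 0 genes and DESeq2 called 10, none of them a proteasome gene. Leaving out a number from both groups, the block fit of edgeR called 10 genes without number 1, 9 without number 2 and 5487 without number 3, of which 42 of the 49 rows matched by name. The same fits by other tools were chosen after seeing the data. They called 2 (DESeq2) and 10 (limma-voom) genes without number 1, 0 and 9 without number 2, and 3068 and 5668 without number 3, with 36 and 42 of the 49; with the length and GC trend removed the last was 2149, with 16. Single libraries left out gave 0 calls each. The median of the Psmd genes then ran from -0.51 to 0.032, above 0 without IRI replicate 1, and that of Psmf1 with the Psmg genes from -0.84 to -0.12. The median of Psmf1 with the Psmg genes was -0.16 with the trend removed and -0.13 with the block too. In block fits without number 1 it was -0.15 by edgeR, -0.15 by DESeq2, -0.16 by limma-voom and -0.084 with the trend removed, and without number 2 it was -0.17 with the trend removed. The sign turned in 28 of 660 alternative values of 22 named genes, in 8 genes. With the trend removed, without and then with the block, Psme4 was -0.048 and -0.045, Nfe2l1 -0.012 and -0.00071, and Usp14 -0.063 and -0.020. In block fits with the trend removed, Psmb10 was 0.061 and Psma5 0.066 without number 1, and Nfe2l1 was -0.16. Without number 2 in the same fits Psmb10 was 0.050, Psmb5 0.055, Psmb6 0.10, Psme4 -0.068 and Usp14 -0.16, and without number 3 Psme4 was -0.084 and Usp14 -0.15. In block fits by edgeR, DESeq2 and limma-voom, Psme3 was -0.024, -0.034 and -0.024 and Usp14 -0.029, -0.040 and -0.029 without number 2, and Nfe2l1 -0.078, -0.079 and -0.078 without number 1. Leaving out single libraries gave -0.024 to 0.086 for Psme3, -0.14 to 0.25 for Nfe2l1 and -0.0079 to 0.48 for Usp14. The log2 ratio differences then ran from -0.23 to 0.19 for Psmb8 to Psmb5, -0.15 to 0.12 for Psmb9 to Psmb6 and -0.049 to 0.22 for Psmb10 to Psmb7. Between replicate numbers upper-quartile factors gave 0 member calls, total counts 0, and the other settings 16 of 3231 genes without a filter, 13 of 1869 by DESeq2 and 4 of 2154 with the trend removed. Total counts moved the median of all genes to 0.10. The causes were not tested.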

Other observations

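Markers of kidney cortex were present. All 8 proximal tubule markers were tested, with a summed level of 3186 to 8172 CPM in congested IRI and 3609 to 7496 CPM in IRI libraries, 7 above 0 and a median log2 fold change of 0.06. The 6 markers of other kidney epithelium had a median of -0.16 and the 4 endothelial markers one of 0.39. Among the 6, levels differed between libraries by the widest factor for Slc12a1. It held 105.2, 447.4 and 1105 CPM in congested IRI replicates 1, 2 and 3, and 50.9, 941.6 and 1507 CPM in IRI replicates 1, 2 and 3. In all 3 lists edgeR called 0 genes, and at an unadjusted p under 0.05 it found 0, 0 and 1. Their part in the level of the proteasome genes was not tested. Between the replicate numbers, where 7.94% of all genes passed the threshold, 4 of the 8 proximal tubule markers, 3 of the 6 markers of other epithelium, 0 of the 4 endothelial markers and 5 of the 11 tested leukocyte markers did.

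The 3 rows matched by name that are no subunit also had IRI replicates 1 and 2 above the congested libraries. Psmc3ip, a cofactor of meiotic recombination, held 5.02, 5.2 and 6.28 CPM in congested IRI replicates 1, 2 and 3 and 8.98, 10.4 and 4.24 CPM in IRI replicates 1, 2 and 3. Psme3ip1, which encodes a partner of Psme3, held 36.6, 35.4 and 37.3 CPM in congested IRI and 53.0, 51.0 and 35.7 CPM in IRI kidney. Psme2b, a near copy of Psme2, held 1.79, 1.90 and 2.04 CPM in congested IRI and 5.48, 2.56 and 1.32 CPM in IRI kidney.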
